A study of Mus musculus with 10 samples.

Results

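The genes that make adult hemoglobin and its heme were followed across 10 mouse RNA sequencing libraries in 5 groups of 2. They were found by gene symbol in the deposited table, where 9 of 46959 gene entries matched: the adult alpha globin genes Hba-a1 and Hba-a2, the adult beta globin genes Hbb-bs and Hbb-bt, and the heme synthesis genes Alas2, Alad, Urod, Cpox and Fech. All 9 passed the filter on low counts in the femoral libraries. In the spleen libraries 6 passed, and Hba-a1, Hba-a2 and Alas2 did not.

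The 2KO, deltaEmu and RAG2_deficient groups were labelled as B cells of the femur, lysed without culture, from mice on a C57BL6 background. The 2KO group is not spelled out in the sample labels, and the design text names mice that lack both the Eµ and the 3′RR enhancers of the immunoglobulin heavy chain locus. The deltaEmu group is labelled as lacking Eµ, and the RAG2_deficient group lacks RAG2, a recombinase needed to assemble antigen receptor genes. The LPS_IL4_SAHA and LPS_IL4 groups are wild-type CD43- spleen cells labelled as strain 129, although the growth protocol also speaks of BLACK-6 controls. Culture lasted 48 h, in 5 µg/ml lipopolysaccharide (LPS) and 20 ng/ml interleukin 4 (IL4). SAHA, a histone deacetylase inhibitor, was added to LPS_IL4_SAHA alone, at 200 nM by the sample names and 200 ng/ml by the treatment protocol. All mice were 8 to 10 weeks old, each library was a pool of mice, and a wild-type femoral group is lacking among the samples used.

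Hemoglobin joins alpha and beta globin chains, and each chain carries a heme, an iron-bearing ring that binds oxygen. Heme synthesis starts in the mitochondrion with the joining of glycine and succinyl-CoA, passes through the cytosol, and ends in the mitochondrion, where iron is put into the ring. Red cell precursors in the bone marrow run this pathway at a high rate and start it with their own synthase, Alas2, while other cells start it with Alas1. Mature B cells are not known for making hemoglobin, but like nearly all cells they make some heme.

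The count table numbers its columns, and the labels hold 2 numberings that give different samples for 8 of the 10 columns. Each column was given to the sample whose description ends in its number, after marker levels in the columns were known. Under the numbering in the titles every comparison below would fail. The titles of the spleen samples also put SAHA on the opposite libraries, so every difference between LPS_IL4_SAHA and LPS_IL4 would change its sign. Total counts lay between 17710154 and 25544275 a library. The femoral libraries were not pure B cells: summed levels were 389 to 3109 CPM for 10 red cell markers outside the 9 genes, 711 to 3289 CPM for 10 early B cell markers and 1208 to 8467 CPM for 8 markers of stroma. Neutrophil markers, 10 genes, summed to 6892 to 20826 CPM. CPM are counts scaled to a common library size after TMM scaling, and are comparable between libraries. In such mixed libraries, fewer cells of a type and less RNA per cell cannot be told apart.

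The promoters of 5 of the genes are shown because they set the globins beside their partners. The 2 alpha genes have separate promoters that are identical over 247 aligned bases, while those of the 2 beta genes differ. Alas2 and Cpox hold short motifs that the globin promoters also hold. RefSeq promoters (GRCm38.p6) were found for 8 of the 9 genes, and the 250 bases before the start are printed 5′ to 3′ on the gene's own strand. Capitals mark 4 motifs, searched on both strands. The first is GATAA (reverse TTATC), a core bound by GATA factors. The next is CACCC (reverse GGGTG), bound by factors of the Klf family. The others are the CCAAT box (reverse ATTGG) and the TATAA box (reverse TTATA). Motifs can overlap, as a TATAA box does with its reverse in Alas2. Hba-a2 is at chr11:32296242-32296491 on the plus strand, Hbb-bs at chr7:103827929-103828178 and Hbb-bt at chr7:103813924-103814173 on the minus strand, Alas2 at chrX:150547167-150547416 on the plus strand and Cpox at chr16:58669958-58670207 on the plus strand.
Hba-a2 promoter: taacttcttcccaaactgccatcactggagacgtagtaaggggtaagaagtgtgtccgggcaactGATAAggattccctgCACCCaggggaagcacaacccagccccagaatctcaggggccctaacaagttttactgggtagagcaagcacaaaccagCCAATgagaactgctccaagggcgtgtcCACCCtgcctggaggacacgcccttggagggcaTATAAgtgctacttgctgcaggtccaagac
Hbb-bs promoter: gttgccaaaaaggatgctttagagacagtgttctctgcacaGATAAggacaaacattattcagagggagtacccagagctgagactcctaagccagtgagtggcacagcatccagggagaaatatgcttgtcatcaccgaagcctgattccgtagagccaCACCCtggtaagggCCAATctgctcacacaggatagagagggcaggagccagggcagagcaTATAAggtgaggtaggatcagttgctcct
Hbb-bt promoter: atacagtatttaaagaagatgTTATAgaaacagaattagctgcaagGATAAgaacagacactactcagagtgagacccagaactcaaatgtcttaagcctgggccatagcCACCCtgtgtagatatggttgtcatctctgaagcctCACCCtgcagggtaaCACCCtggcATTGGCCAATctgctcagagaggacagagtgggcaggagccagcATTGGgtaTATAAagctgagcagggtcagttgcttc
Alas2 promoter: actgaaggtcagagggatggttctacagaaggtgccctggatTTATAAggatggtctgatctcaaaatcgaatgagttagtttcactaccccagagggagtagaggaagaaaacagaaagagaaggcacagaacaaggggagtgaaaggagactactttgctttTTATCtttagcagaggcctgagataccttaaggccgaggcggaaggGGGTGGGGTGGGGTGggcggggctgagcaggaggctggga
Cpox promoter: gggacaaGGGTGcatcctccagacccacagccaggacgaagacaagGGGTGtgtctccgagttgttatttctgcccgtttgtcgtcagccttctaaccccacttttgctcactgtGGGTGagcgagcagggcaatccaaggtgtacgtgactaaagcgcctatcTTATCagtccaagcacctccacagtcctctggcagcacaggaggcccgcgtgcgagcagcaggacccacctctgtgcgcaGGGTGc
Over 247 aligned bases the promoters of Hba-a1 and Hba-a2 were identical, whereas Hbb-bs and Hbb-bt matched at 178 of 243 aligned bases (73.3%). All 4 globin promoters held each of the 4 motifs in this window, with a TATAA box between 27 and 30 bases before the start. Alas2 and Cpox held the GATAA and the CACCC motif on the reverse strand, and Alas2 held the CACCC motif 3 times in a row. Among 32851 promoters of the same length, 22.6% held the GATAA motif, 52.0% the CACCC motif, 33.8% the CCAAT box and 22.8% the TATAA box, and 10.1% held both of the first pair. The Urod promoter and the 2 starts listed for Alad held no GATAA in this window. These matches are letters only, and binding was not measured here.

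The transcribed copies are close as well. The reference transcripts of Hba-a1 and Hba-a2 (GENCODE vM21) differed at 1 of 538 aligned bases, and those of Hbb-bs and Hbb-bt at 41 of 616. Of all windows of 50 bases, 67.5% of those in Hba-a1 also stood in Hba-a2 and 65.8% of those in Hbb-bs also stood in Hbb-bt. How the authors counted reads that match both copies is not given in the sources used here, so the split within each pair is uncertain, and sums of the copies are given below beside the single genes.

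The 2KO against deltaEmu comparison addresses what the second enhancer deletion adds, as far as the group names say. All 9 genes had both 2KO libraries above both deltaEmu libraries, and 8 of the 9 rose in the test. The 4 globins, Alas2 and Alad were 4.59 to 5.26 times as high in 2KO, Fech and Cpox 3.31 and 2.85 times. Of all 16538 genes tested, 28.6% had both 2KO libraries higher and 1.79% were called higher. The median log2 fold change was 2.29 over the 9 genes and -0.01 over all genes.

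Hba-a1 (chromosome 11, 32283511 to 32284465, plus strand, mm10) encodes an alpha chain and had the higher count of the pair in femoral libraries. It had 2845 and 3619 CPM in 2KO, against 603 and 712 CPM in deltaEmu. The log2 fold change was 2.29 ± 0.41 (SE), with an edgeR quasi-likelihood adjusted p of 0.0245. Hba-a2, the neighbouring copy (32296489 to 32297298), had 472 and 641 CPM in 2KO, against 115 and 104 CPM in deltaEmu. Its log2 fold change of 2.33 ± 0.25 had the smallest edgeR adjusted p of the 9 genes, 0.00291. The counts given to the 2 alpha copies thus moved by nearly the same factor, with no overlap between groups. Because the split of reads between the copies is uncertain, the 2 factors are not separate results for each copy.

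Hbb-bs (chromosome 7, 103826534 to 103828096, minus strand) encodes a beta chain and had the higher count of the pair in femoral libraries. It had 4221 and 6762 CPM in 2KO, against 1049 and 1123 CPM in deltaEmu, a log2 fold change of 2.33 ± 0.42 (edgeR adjusted p = 0.0247). Hbb-bt, the other adult beta gene (103812524 to 103813996), had 1442 and 1759 CPM in 2KO, against 261 and 358 CPM in deltaEmu. Its log2 fold change was 2.36 ± 0.39 (edgeR adjusted p = 0.0181). The groups stood apart for both beta genes. With the copies summed, alpha globin was 4.91-fold higher (edgeR adjusted p = 0.0221) and beta globin 5.05-fold higher (edgeR adjusted p = 0.0280), so neither call depends on how reads were split between copies.

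Alas2 (chromosome X, 150547375 to 150570638, plus strand) encodes the red cell form of 5-aminolevulinate synthase, which starts the pathway. It had 311 and 479 CPM in 2KO, against 83.0 and 66.2 CPM in deltaEmu. This was a log2 fold change of 2.396 ± 0.303 (edgeR adjusted p = 0.00573), the largest of the 9. Alad (chromosome 4, 62509169 to 62519918, minus strand), whose enzyme joins the first intermediates into porphobilinogen, had 123 and 218 CPM in 2KO, against 37.2 and 36.8 CPM in deltaEmu. Its log2 fold change was 2.20 ± 0.31 (edgeR adjusted p = 0.0089). The 2KO libraries differed between themselves more than the deltaEmu libraries did, but no value of either gene overlapped.

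Urod (chromosome 4, 116989965 to 116994413, minus strand), whose enzyme trims the porphyrin side chains in the cytosol, had 83.5 and 122 CPM in 2KO, against 43.8 and 50.6 CPM in deltaEmu. The log2 difference of 1.11 ± 0.27 was the smallest of the 9 and missed the threshold (edgeR adjusted p = 0.0736). Cpox (chromosome 16, 58670208 to 58680391, plus strand) encodes the oxidase of the next step, in the mitochondrion. It had 118 and 210 CPM in 2KO, against 58.8 and 55.6 CPM in deltaEmu, a log2 fold change of 1.51 ± 0.26 (edgeR adjusted p = 0.0224). Fech (chromosome 18, 64456550 to 64489066, minus strand) encodes ferrochelatase, which inserts the iron. It had 147 and 257 CPM in 2KO, against 66.6 and 54.9 CPM in deltaEmu, a log2 fold change of 1.73 ± 0.28 (edgeR adjusted p = 0.0155). The late enzymes thus differed less than the globins and Alas2 in point estimate, and the differences between genes were not tested.

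**Figure D1:**
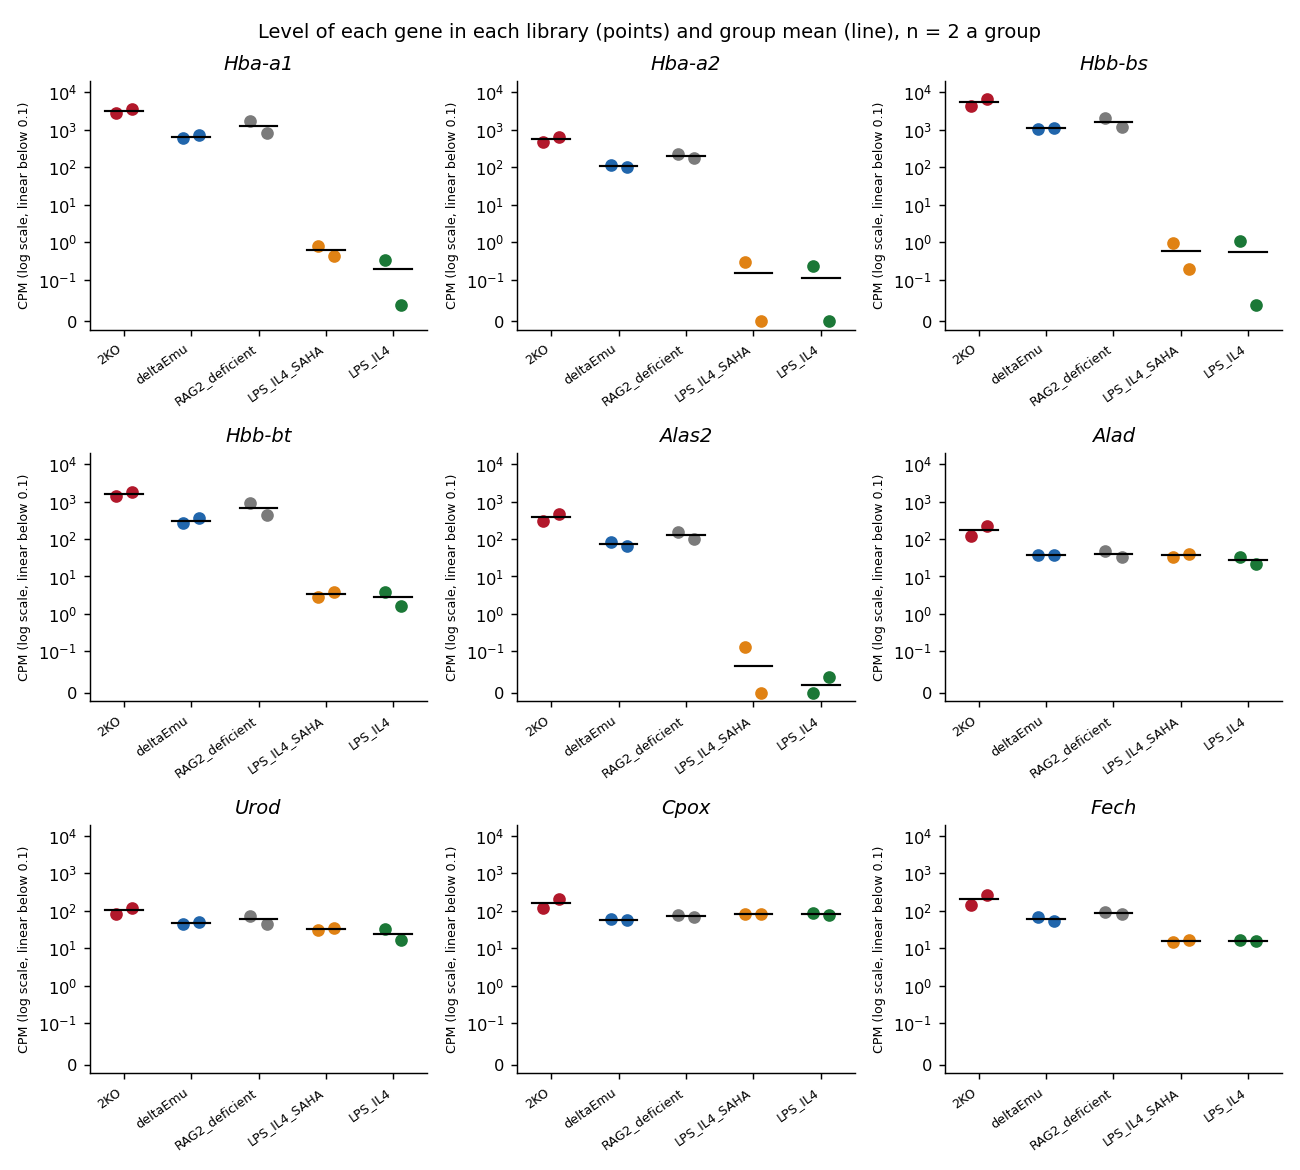
Level of each of the 9 genes (CPM on a log scale that is linear below 0.1) in each library (points) with the group mean (line), n = 2 a group. The 4 globins and Alas2 stand highest in 2KO and near 0 in both spleen groups, while Alad, Urod, Cpox and Fech stay above 10 CPM everywhere.

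The direction of these 9 differences held in all 13 other settings, but the calls rested on single libraries. Calls were lost when single libraries were left out, among them 2KO replicate 3 and either deltaEmu replicate. With each library left out, the log2 fold change ran from 2.06 to 2.68 for Alas2 and from 1.05 to 1.87 for Cpox. Over all genes, 612 were called in either direction, and 568 to 1537 under the other settings that kept every library. Hbb-bs had an edgeR adjusted p of 0.129 in a fit over all 10 libraries.

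Red cell markers moved with the 9 genes. All 10 markers outside the list (membrane and blood group genes such as Slc4a1, Rhag and Kel) rose in 2KO against deltaEmu, and their sum was 1662 and 3109 CPM in 2KO, against 484 and 389 CPM in deltaEmu. No marker was at 0 in any femoral library. Divided by that sum, the 4 globins together gave 5.40 and 4.11 in 2KO, against 4.19 and 5.90 in deltaEmu, and Alas2 gave 0.187 and 0.154 in 2KO, against 0.172 and 0.170 in deltaEmu. Per unit of red cell marker, these groups overlapped for the globins and for Alas2. Urod gave 0.0502 and 0.0391 in 2KO, against 0.0906 and 0.130 in deltaEmu, Cpox 0.0712 and 0.0674 in 2KO, against 0.122 and 0.143 in deltaEmu, and Fech 0.0887 and 0.0826 in 2KO, against 0.138 and 0.141 in deltaEmu. Alad gave 0.0742 and 0.0701 in 2KO, against 0.0769 and 0.0944 in deltaEmu. For these 4 enzymes the order turned round, with 2KO below deltaEmu per unit of marker and no overlap, by the least for Alad. These enzymes are also found without red cell markers. The spleen libraries, with marker sums of 0.763 to 1.95 CPM, held Fech at 14.7 to 17.0 CPM and Cpox at 77.8 to 87.9 CPM. The ratio thus takes in enzyme RNA of other cells and is not a level per red cell. How many of all genes turn round in this way was not counted. Of other cell types' markers, 5 of 10 mature B cell markers and 1 of 8 stromal markers fell in 2KO against deltaEmu, and none of the early B cell, neutrophil, megakaryocyte and macrophage markers was called by edgeR. The part of cell content in the differences was not tested.

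**Figure D2:**
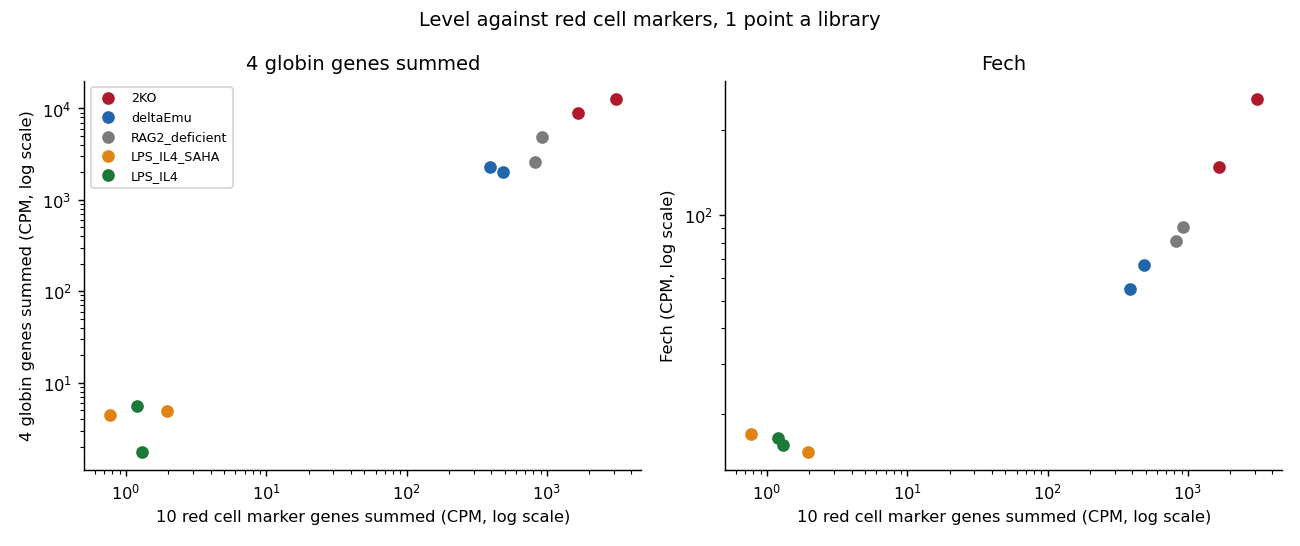
Summed level of the 4 globins (left) and level of Fech (right) against the summed level of 10 red cell markers, 1 point a library, all axes CPM on log scales. The 2KO libraries stand highest on every axis; among spleen libraries, marker sums of 0.763 to 1.95 CPM go with Fech at 14.7 to 17.0 CPM.

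The rest of the pathway was read from lists chosen by role. Of the 3 other heme enzymes listed, 2 rose in 2KO against deltaEmu: Ppox (protoporphyrinogen oxidase) by 1.32 ± 0.22 and Uros (uroporphyrinogen III synthase) by 1.14 ± 0.21 on the log2 scale (edgeR adjusted p = 0.0184 and 0.0265). Alas1, the synthase of most other cells, had 92.4 and 104 CPM in 2KO, against 129 and 130 CPM in deltaEmu, a log2 fold change of -0.40 ± 0.20 that was not called (edgeR adjusted p = 0.407). Of 16 tested genes of iron and heme supply, 5 rose and none fell. They included the iron transporter Slc11a2 (log2 1.26 ± 0.17, edgeR adjusted p = 0.00823), the mitochondrial iron importer Slc25a37 (1.83 ± 0.31, 0.0184), the iron-sulfur assembly gene Isca1 (1.04 ± 0.19, 0.0265) and the transporter Abcb6 (2.28 ± 0.43, 0.0297). The list's median log2 fold change was 0.78.

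Of 12 erythroid regulators, 4 rose in 2KO against deltaEmu: the erythropoietin receptor gene Epor (log2 1.81 ± 0.26, edgeR adjusted p = 0.0107), and the transcription factor genes Tal1 (1.58 ± 0.28, 0.0231), Zfpm1 (1.12 ± 0.20, 0.0243) and Klf1 (1.22 ± 0.24, 0.0368). The list's median was 0.68. Among the other globins 2 of 6 could be tested, and Hbq1b, a theta globin gene, rose with 5.38 and 9.32 CPM in 2KO, against 1.41 and 1.07 CPM in deltaEmu (edgeR adjusted p = 0.0153). None of 7 genes of heme breakdown, export and sensing was called by edgeR, and their median was 0.35.

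The 2KO against RAG2_deficient comparison involves both the enhancers and RAG2, by the group names, and the part of each cannot be told apart. All 9 genes again had both 2KO libraries higher, as did 24.3% of all genes tested, and 3 of the 9 rose, against 1.26% of all genes called higher. The median log2 fold change was 1.34 over the 9 genes and -0.00067 over all genes. This comparison and the one with deltaEmu share the 2KO libraries.

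Alad had the largest difference, with 123 and 218 CPM in 2KO, against 48.7 and 32.4 CPM in RAG2_deficient (log2 2.06 ± 0.31, edgeR adjusted p = 0.0146). Alas2 had 311 and 479 CPM in 2KO, against 150 and 100 CPM in RAG2_deficient (1.65 ± 0.29, edgeR adjusted p = 0.0267). Hba-a2 had 472 and 641 CPM in 2KO, against 232 and 178 CPM in RAG2_deficient (1.43 ± 0.24, edgeR adjusted p = 0.0233). These were the 3 that passed, and 3 more lay close to the threshold. Fech had 147 and 257 CPM in 2KO, against 91.0 and 81.2 CPM in RAG2_deficient (1.22 ± 0.27, edgeR adjusted p = 0.0501). Cpox had 118 and 210 CPM in 2KO, against 75.1 and 70.4 CPM in RAG2_deficient (1.16 ± 0.26, edgeR adjusted p = 0.0520). Hbb-bs had 4221 and 6762 CPM in 2KO, against 2083 and 1180 CPM in RAG2_deficient (1.74 ± 0.41, edgeR adjusted p = 0.0596).

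Of the remaining genes, the globins were the more variable in RAG2_deficient. Hba-a1 had 2845 and 3619 CPM in 2KO, against 1716 and 820 CPM in RAG2_deficient (1.34 ± 0.40, edgeR adjusted p = 0.111). Hbb-bt had 1442 and 1759 CPM in 2KO, against 893 and 436 CPM in RAG2_deficient (1.25 ± 0.38, edgeR adjusted p = 0.113). For each of the 4 globins, RAG2_deficient replicate 1 was the higher of the pair. Urod had 83.5 and 122 CPM in 2KO, against 72.3 and 45.7 CPM in RAG2_deficient (0.78 ± 0.27, edgeR adjusted p = 0.155). Summed alpha and beta globin were not called (edgeR adjusted p = 0.1004 and 0.0799).

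The count of 3 moved with the settings: 8 genes were called by DESeq2 (among 1242 of all genes in either direction) and 9 with no filter on low counts. Over all genes, 713 were called in either direction, and 509 to 1971 under the other settings that kept every library. The calls also changed when a library was left out, the deltaEmu libraries included. Those are not part of this contrast but share its estimate of the spread. With each library left out, the log2 fold change ran from 1.60 to 2.43 for Alad and from 1.32 to 1.98 for Alas2. Of the 10 red cell markers 3 rose, and their sum was 926 and 819 CPM in RAG2_deficient, below both 2KO libraries. Of other cell types' markers, 6 of 8 stromal, 5 of 10 early B cell, 1 of 10 mature B cell and 1 of 6 megakaryocyte markers fell, and 2 of 10 mature B cell markers rose. The stromal sum was 1713 and 1208 CPM in 2KO, against 8467 and 7419 CPM in RAG2_deficient. The part of these cells in the result was not tested. The sex-linked transcripts differed too: Xist was at 761 and 998 CPM in 2KO, against 1145 and 2754 CPM in RAG2_deficient, and the Y-linked Ddx3y at 45.4 and 43.0 CPM in 2KO, against 0.233 and 0 CPM in RAG2_deficient. Alas2 is X-linked, and sex and genotype cannot be told apart for it here.

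On the wider lists, 1 of 16 supply genes rose in 2KO against RAG2_deficient (Isca1, log2 0.94 ± 0.19, edgeR adjusted p = 0.0397), as did 2 of 12 regulators (Tal1, 1.32 ± 0.28, 0.0431, and Klf1, 1.14 ± 0.24, 0.0447). Alas1 was at 92.4 and 104 CPM in 2KO, against 87.8 and 61.6 CPM in RAG2_deficient, and was not called (edgeR adjusted p = 0.370). None of the 3 other heme enzymes, the 2 other globins tested and the 7 breakdown genes was called by edgeR.

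The deltaEmu against RAG2_deficient comparison involves both Eµ and RAG2, by the group names, and the part of each cannot be told apart. None of the 9 genes was called by edgeR, and 4 had an unadjusted p under 0.05, as had 25.6% of all genes tested. By DESeq2 3 were called lower, where 2064 genes of the series were called in either direction. Both deltaEmu libraries lay below both RAG2_deficient libraries for 7 of the 9 genes, as they did for 26.4% of all genes tested, while 5.39% of all genes were called lower. The exceptions were Alad and Urod, whose values overlapped. The median log2 fold change was -0.59 over the 9 genes and -0.01 over all genes.

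Hbb-bt had 261 and 358 CPM in deltaEmu, against 893 and 436 CPM in RAG2_deficient, with the largest log2 difference, -1.11 ± 0.38 (edgeR adjusted p = 0.112). Hba-a2 came closest to the threshold, with 115 and 104 CPM in deltaEmu, against 232 and 178 CPM in RAG2_deficient (-0.91 ± 0.24, edgeR adjusted p = 0.0564). Alas2 had 83.0 and 66.2 CPM in deltaEmu, against 150 and 100 CPM in RAG2_deficient (-0.75 ± 0.29, edgeR adjusted p = 0.155). Ddx3y was at 65.8 and 49.9 CPM in deltaEmu, against 0.233 and 0 CPM in RAG2_deficient. For the X-linked Alas2, sex and genotype cannot be told apart here either. At the other end of the range, Alad had 37.2 and 36.8 CPM in deltaEmu, against 48.7 and 32.4 CPM in RAG2_deficient (-0.14 ± 0.30, edgeR adjusted p = 0.816). Hba-a1, Hbb-bs, Fech, Cpox and Urod had log2 differences of -0.96, -0.59, -0.51, -0.35 and -0.33. With no filter on low counts, 4 were called lower, and calls also changed when a library was left out. Over all genes, 1622 were called in either direction, and 1418 to 3308 under the other settings that kept every library. With each library left out, the log2 difference ran from -1.54 to -0.49 for Hbb-bt and from -1.09 to -0.69 for Hba-a2.

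Here too red cell markers lay in the same order, with 484 and 389 CPM in deltaEmu, against 926 and 819 CPM in RAG2_deficient, and 3 of the 10 fell; their part was not tested. On the wider lists, Slc11a2 fell (log2 -0.997 ± 0.172, edgeR adjusted p = 0.0134), as did Hmox1, the heme oxygenase that opens the ring for breakdown, with 46.0 and 55.1 CPM in deltaEmu, against 157 and 97.3 CPM in RAG2_deficient (-1.34 ± 0.33, edgeR adjusted p = 0.0443). Other cell types' markers moved in the same comparison: 6 of 7 marrow macrophage, all 8 stromal and 5 of 10 early B cell markers fell, while 8 of 10 mature B cell and 6 of 10 neutrophil markers rose. Alas1 had 129 and 130 CPM in deltaEmu, against 87.8 and 61.6 CPM in RAG2_deficient, and just missed the threshold (0.79 ± 0.21, edgeR adjusted p = 0.0528). No gene of the other lists of heme enzymes, globins and regulators was called by edgeR.

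**Figure D3:**
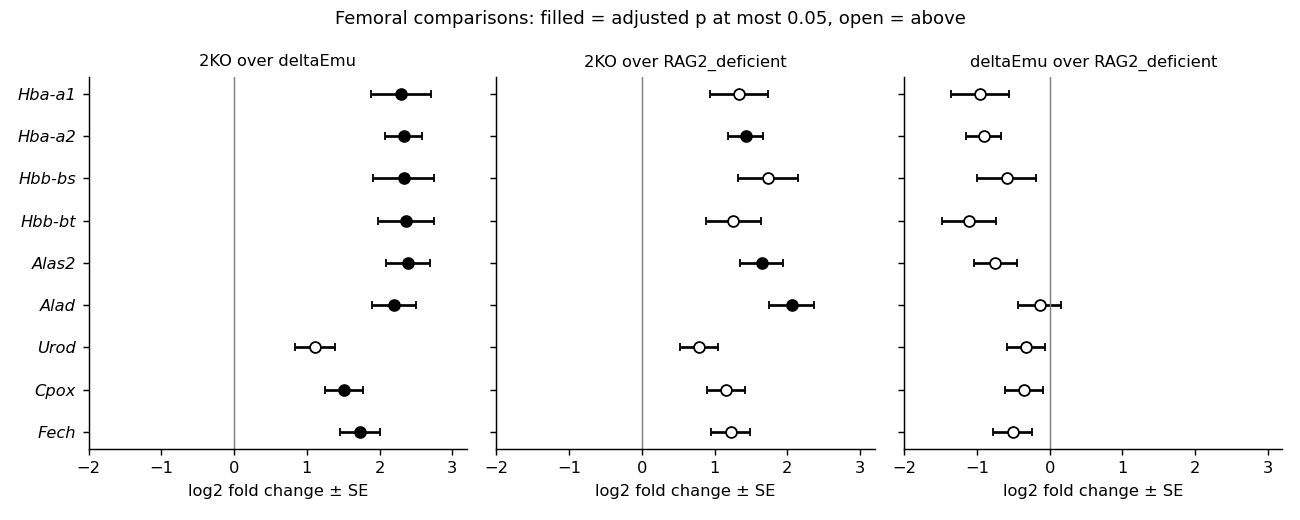
Log2 fold change ± SE of each gene in the 3 femoral comparisons (n = 2 libraries a group), with filled points at an edgeR adjusted p of at most 0.05. In the first panel 8 points are filled, in the middle panel 3 and in the last panel 0.

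The balance among the genes varied less than their levels. Per kilobase of gene length, the alpha to beta globin ratio was 0.607 and 0.524 in 2KO, 0.577 and 0.570 in deltaEmu, and 0.668 and 0.642 in RAG2_deficient. Both RAG2_deficient libraries lay above the other 4. The size of this ratio is uncertain, since the alpha copies share more sequence than the beta copies. Of windows of 50 bases, 86.9% of those in Hba-a2 also stood in Hba-a1, against 58.3% of those in Hbb-bt in Hbb-bs. If shared reads were dropped, summing the copies would not restore them. The deposited gene lengths also differ unevenly from those of the reference transcripts, which adds to the uncertainty. They are 863 against 628 bases for Hbb-bs, 812 against 699 for Hba-a1, 667 against 554 for Hba-a2 and 703 against 703 for Hbb-bt. The 4 globins together took 0.958% and 1.41% of all counts in 2KO, 0.221% and 0.231% in deltaEmu, and 0.472% and 0.301% in RAG2_deficient. Among alpha counts, Hba-a1 held between 82.1% and 88.1% in every femoral library.

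The balance of the 2 synthases differed more. Per kilobase, the ratio of Alas2 to Alas1 was 6.04 and 8.26 in 2KO, 1.15 and 0.917 in deltaEmu, and 3.06 and 2.91 in RAG2_deficient. None of these groups overlapped. These libraries mix cell types, so the ratio is not a balance within a cell type. The part of cell content in it was not tested. Levels per kilobase (CPM divided by gene length in kilobases, RPKM) also order the enzymes within a library: in 2KO, Alas2 stood at 130 and 199 RPKM, Alad at 65.9 and 117, Fech at 50.8 and 88.6, Cpox at 37.2 and 65.8, and Urod at 32.2 and 46.9 RPKM. In deltaEmu, Alas2 stood at 34.5 and 27.6 RPKM, Alad at 19.9 and 19.6, and Fech at 23.0 and 18.9 RPKM. Cpox stood there at 18.4 and 17.4, and Urod at 16.9 and 19.5 RPKM. The order of the enzymes rests on the deposited gene lengths and so on the annotation. How far these lengths match the transcripts made was not tested.

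**Figure D4:**
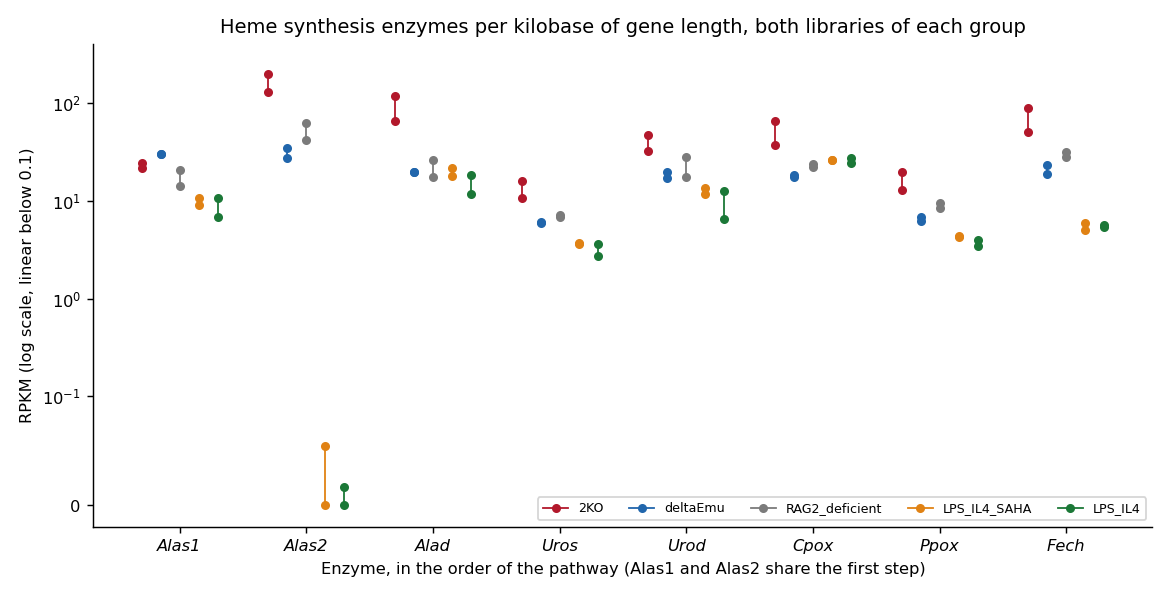
Level of 8 heme synthesis enzymes per kilobase of gene length (RPKM on a log scale that is linear below 0.1), in the order of the pathway, with both libraries of each group joined by a line. Alas2 spans from 0 in single spleen libraries to 199 RPKM in 2KO, whereas Alas1 stays between 6.75 and 30.1 RPKM.

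The LPS_IL4_SAHA against LPS_IL4 comparison addresses the effect of SAHA on cultured spleen B cells. None of the 6 genes tested was called by edgeR or DESeq2, and none had an unadjusted p under 0.05. The same held for the series: 0% of 13913 genes tested were called, 1.34% had an unadjusted p under 0.05, and the smallest edgeR adjusted p was 0.939. The median log2 fold change was 0.16 over the 6 genes and -0.03 over all genes.

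Every enzyme after Alas2 was above 10 CPM in both spleen groups, and the groups overlapped for each. Cpox had 83.7 and 82.5 CPM in LPS_IL4_SAHA, against 87.9 and 77.8 CPM in LPS_IL4 (log2 -0.08 ± 0.20, edgeR adjusted p = 0.950). Fech had 14.7 and 17.0 CPM in LPS_IL4_SAHA, against 16.5 and 15.5 CPM in LPS_IL4 (-0.10 ± 0.20, edgeR adjusted p = 0.940). Alad had 33.8 and 40.3 CPM in LPS_IL4_SAHA, against 34.0 and 21.7 CPM in LPS_IL4 (0.34 ± 0.25, edgeR adjusted p = 0.939). Urod had 30.5 and 34.9 CPM in LPS_IL4_SAHA, against 32.4 and 16.9 CPM in LPS_IL4 (0.34 ± 0.31, edgeR adjusted p = 0.939). For Alad and Urod the low value was LPS_IL4 replicate 6_et_8. Without LPS_IL4 replicate 4_et_7, Alad and Urod and 1 gene too low to be tested with all 4 libraries were called higher by edgeR (3 of 7 tested), among 2670 genes called in either direction.

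Globin counts in the spleen libraries were few. Hbb-bt had 67 and 80 counts in LPS_IL4_SAHA, against 69 and 42 in LPS_IL4 (log2 0.21 ± 0.47, edgeR adjusted p = 0.946). Hbb-bs had 22 and 4 counts in LPS_IL4_SAHA, against 19 and 1 in LPS_IL4 (0.11 ± 1.26, edgeR adjusted p = 0.993). Hba-a1 had 18 and 9 counts in LPS_IL4_SAHA, against 6 and 1 in LPS_IL4, which gave a ratio of 3.77 per library size (95% counting interval 1.60 to 10.3). Of the 9 genes only Hba-a1 had groups that did not overlap, and 15.7% of all genes tested had both LPS_IL4_SAHA libraries higher. Summed alpha globin was not called (edgeR adjusted p = 0.939). Hba-a2 had 7 and 0 counts in LPS_IL4_SAHA, against 4 and 0 in LPS_IL4, and Alas2 had 3 and 0 counts in LPS_IL4_SAHA, against 0 and 1 in LPS_IL4. The interval covers counting error only, not the spread between pools, and Hba-a1, Hba-a2 and Alas2 were too low to enter the edgeR test on their own. None of the 3 other heme enzymes, 16 supply genes, 7 breakdown genes, 7 regulators and 1 other globin tested was called by edgeR, Alas1 included (0.10 ± 0.25, edgeR adjusted p = 0.949).

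Set against LPS_IL4, the mean of the 3 femoral groups was higher for 8 of the 9 genes, while 34.6% of 17483 genes tested were higher and 26.6% lower. Tissue, strain, culture and, by Xist and Ddx3y, sex all differ between these groups and cannot be told apart. By the fitted fold, the 4 globins were 264 to 8347 times as high, and the heme enzymes outside Alas2 no more than 6.59 times.

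Hba-a1 had 603 to 3619 CPM in femoral libraries, against 0.340 and 0.0393 CPM in LPS_IL4, which gave a ratio of 10966 (95% counting interval 5322 to 27276). Hba-a2, with 4 counts in LPS_IL4, had a ratio of 3271 (1278 to 12007), and Hbb-bs, with 20 counts, had a ratio of 6189 (4007 to 10132). Alas2 rested on 1 count in LPS_IL4, against 66.2 to 479 CPM in femoral libraries, and its ratio of 8977 had an interval of 1611 to 354595. These 4 genes had edgeR adjusted p-values under the threshold, as had Hbb-bt (log2 8.05 ± 0.54, 264-fold). The red cell markers were likewise near 0 in spleen, with sums of 1.19 and 1.30 CPM in LPS_IL4 and 8 of the 10 markers at 0 in each library.

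Fech was 6.59-fold higher in femoral libraries (log2 2.72 ± 0.25), Urod 2.80-fold (1.49 ± 0.28, edgeR adjusted p = 0.0013) and Alad 2.38-fold (1.25 ± 0.27, edgeR adjusted p = 0.0028). Cpox had 55.6 to 210 CPM in femoral libraries, against 87.9 and 77.8 CPM in LPS_IL4, and was not called (0.14 ± 0.20, edgeR adjusted p = 0.573). In order of group means, Cpox stood in LPS_IL4_SAHA and LPS_IL4 above RAG2_deficient and deltaEmu, and Alad in LPS_IL4_SAHA overlapped deltaEmu and RAG2_deficient. For the 4 globins, Alas2 and Fech the order was 2KO, RAG2_deficient, deltaEmu and then the spleen groups, with no overlap between neighbouring femoral groups. Urod had the same order of means, but its RAG2_deficient and deltaEmu values overlapped.

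Which of the 2 beta genes had the higher count differed between the femoral and the spleen libraries. Hbb-bt made up 19.9% to 29.999% of beta globin counts in the 6 femoral libraries, against 75.3% and 95.2% in LPS_IL4_SAHA and 78.4% and 97.7% in LPS_IL4. The spleen shares rest on 43 to 89 beta counts a library, and their exact Clopper-Pearson intervals run from 65.0% at the lowest to 99.9% at the highest, above every femoral value. All libraries were counted on mm10, which is a C57BL/6 genome, and the spleen mice are labelled 129. Strain and tissue cannot be told apart.

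**Figure D5:**
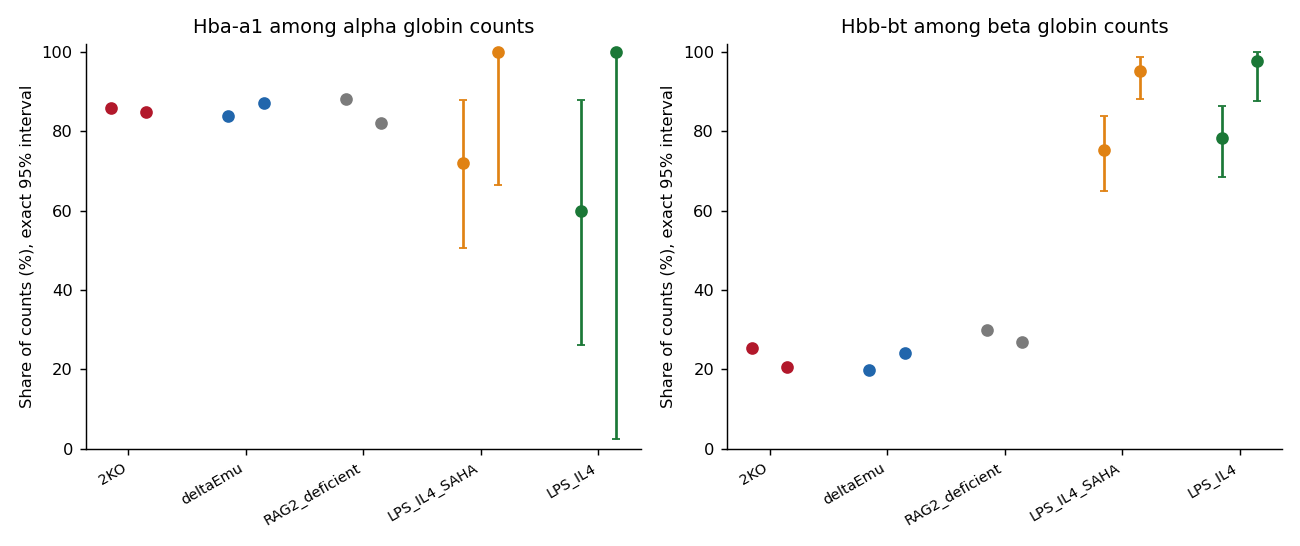
Share of Hba-a1 among alpha globin counts (left) and of Hbb-bt among beta globin counts (right) in each library, in percent with exact 95% intervals. Every spleen library stands above 75% for Hbb-bt and every femoral library below 30%.

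On the wider lists, all 3 other heme enzymes were higher in femoral libraries, Ppox by 1.46, Uros by 1.44 and Alas1 by 1.46 on the log2 scale (edgeR adjusted p = 0.000117, 0.000128 and 0.000228). Of 3 other globins tested, Hbq1b and Hbq1a were higher, with 0 counts in all spleen libraries, and Hbb-bh1, an embryonic beta-like gene, was lower, with 0 to 2 counts in femoral libraries against 19 and 15 in LPS_IL4 (log2 -4.75 ± 0.73, edgeR adjusted p = 0.000519). Read against the 34.6% of all genes called higher, the supply list was not above the background: 5 of 16 were higher, among them Steap3 (log2 4.14 ± 0.36), Abcb10 (2.43 ± 0.27), Slc25a37 (1.99 ± 0.26) and Slc11a2 (0.97 ± 0.15), and 1 was lower: the transferrin receptor gene Tfrc, named after its value was seen, at 248 to 836 CPM in femoral libraries against 737 and 749 CPM in LPS_IL4. Of 7 breakdown genes 5 were higher, beside the same 34.6% of all genes, among them the heme-binding repressor gene Bach1 (2.93 ± 0.16) and Hmox1 (3.40 ± 0.33), with Blvrb (2.47 ± 0.27) and Slc48a1 (1.07 ± 0.17). Of 12 regulators 8 were higher, with Tal1 at 37.8 to 148 CPM in femoral libraries against 0.0566 and 0.0393 CPM in LPS_IL4, Klf1 at 24.9 to 79.9 against 0 and 0.118 CPM, Myb at 259 to 444 against 24.6 and 26.3 CPM, and Nfe2 at 52.9 to 109 CPM against 0 counts in LPS_IL4.

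Across the 6 femoral libraries, the log2 levels of the 9 genes followed the mean of the 4 globins with Pearson r between 0.943 (Cpox) and 0.997 (Hba-a1), which for the globins is in part a correlation with themselves. Among 10930 genes with a mean of at least 5 CPM, those most like the globin mean were Sppl2b (r = 0.996), Epor (0.993), Pcx (0.992), Cldn13, Hspbap1, Sema4b (each 0.986), Nupl2 (0.985) and Icam4 (0.984). Those most like Alas2 were Fam220a (0.998), Apol8, Trim10 (each 0.996), St5 (0.993) and Ahcy (0.992). Cldn13 and Trim10 stand on the red cell marker list. Likeness in shape is not likeness in size: Sema4b ranged from 49.3 to 57.4 CPM over these libraries, and Cldn13 from 14.1 to 85.5 CPM. The 6 points come from 3 groups, share the same libraries and scaling, and are given as a description.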

How the data were processed

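Gene counts were analysed for 10 libraries. Total RNA (miRNeasy kit, 500 ng a library) was made into Illumina TruSeq Stranded libraries, per the labels' protocols. The authors deposited raw counts per gene together with each gene's length in bases, a further value (other than a measurement) used here for levels per kilobase. Per the submitters' processing notes, STAR 2.4.0a, featureCounts of Subread 1.4.6-p1 and the mm10/GRCm38 build were used. Not given in the sources used here were the annotation release and the rule for reads that match several genes. The 100 control sequences (at most 17 counts a library) were kept out of every library size and test.

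The tests used edgeR 4.0.16 in R 4.3.3, on the counts as deposited: filterByExpr with a minimum count of 10, TMM scaling and the quasi-likelihood F test. P-values were adjusted by Benjamini-Hochberg across every gene tested, and a gene was called at an adjusted p of at most 0.05. The 6 femoral libraries formed 1 fit (3 residual degrees of freedom), the 4 spleen libraries another (2), and all 10 the fit between tissues (5), with no covariate. Levels use TMM factors over all 10 libraries, so a ratio of printed levels can differ slightly from a fitted fold. The p-values measure only the spread between pools. With 2 libraries a group an exact permutation test cannot reach the threshold and was not used. The scripts were tested on simulated counts. Promoters, transcripts and alignments were handled in Python 3.11.15 with Biopython 1.88.

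The members and lists were chosen with earlier results of these data known. Named were all 9 genes, the called genes of each list (at most 4, by smallest adjusted p), Alas1, and the 8 genes most like the globin mean and 5 most like Alas2 by Pearson r of log2 CPM (prior count 2). Of the lists, 1 supply gene and 1 breakdown gene were not analysed here, and 1 further gene is not reported here. Alternatives were DESeq2 1.42.0, other scalings, a prior count of 0.5, no filter, 1 fit over all libraries, each replicate left out and a pool block. The spleen pools 4_et_7 and 6_et_8 occur in both conditions. Same-numbered libraries tended to deviate from their group means in opposite directions (r = -0.442 across genes). With 2 libraries a group, both pairs give this same value.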

Additional observations from a re-analysis of the deposited data

How the results depend on the processing

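Between 2KO and deltaEmu, and between 2KO and RAG2_deficient, all 113 values of single genes under 13 other settings kept their direction. Counts of the 9 genes called moved, and so did the counts over all genes. In 2KO against deltaEmu, 8 were called higher. In 2KO against RAG2_deficient, 3 were called higher, 8 by DESeq2 and 9 with no filter on low counts. Of all genes, 713 were called there in either direction, and 509 to 1971 under the other settings that kept every library. In deltaEmu against RAG2_deficient, 0 were called lower, 3 by DESeq2 and 4 with no filter. Of all genes, 1622 were called there in either direction, and 1418 to 3308 under the other settings that kept every library. In LPS_IL4_SAHA against LPS_IL4, 0 were called higher. In each of these comparisons, calls among the 9 genes also changed when a library was left out. In the femoral groups against LPS_IL4, 8 were called higher, and no setting changed the call of a single gene. The count was 6 only where the copies of each globin pair were summed, which leaves fewer entries to call. The cause of the other moves was not tested.

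Directions turned only when a library was left out. In LPS_IL4_SAHA against LPS_IL4 the log2 fold change ranged from -1.5005 to 3.62 for Hbb-bs, from -0.23 to 0.91 for Hbb-bt, from -0.16 to 0.013 for Fech and from -8.93e-05 to 0.84 for Urod. In deltaEmu against RAG2_deficient it ranged from -0.41 to 0.20 for Alad and from -0.63 to 0.056 for Urod, and in the femoral groups against LPS_IL4 from -0.075 to 0.20 for Cpox. Where a group was left with 1 library, that library was assumed to vary like the other groups.

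With the pool number as a replicate block, 0 of the 6 genes tested were called in the spleen comparison, and Alad had a log2 fold change of 0.36, Urod 0.39 and Hbb-bt 0.30 (edgeR adjusted p = 1 for each). With the pool numbers crossed, an alternative chosen after seeing the data, 0 of the same 6 genes were called. Neither block changed a call among these genes. Over all genes, 0 were called in the main fit, but 145 were called in 1 of the 9 other settings that kept every library. Across genes all counts of calls follow few degrees of freedom: 119 to 1587 genes were called in 2KO against deltaEmu with each library left out, against 612 with all.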
